A study of Mus musculus with 10 samples.

Results

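The genes described here, called members below, encode the proteins of the mitochondrial ribosome and were taken as all genes whose symbol begins with Mrpl or Mrps followed by a digit. There were 76 of them among the 13299 genes of the table, 48 of the large and 28 of the small subunit, and all 76 passed the filter on low values. They were measured in whole kidneys of mice aged 1.5 years by 3′-end mRNA sequencing of total RNA. In the Rragc S74N/+ group were 5 mice heterozygous for a serine-to-asparagine change in RagC, a small GTPase that passes nutrient signals to the kinase complex mTORC1. This allele was made by genome editing, sits at the endogenous Rragc locus in every cell of the mouse and yields an active RagC. The Rragc +/+ group held 5 wild-type mice, and both groups were of a C57BL/6 background and carried no further allele or treatment in the labels. The labels give neither the sex of these mice nor a number that ties a mouse of one group to a mouse of the other, so replicates were numbered 1 to 5 by order of deposit.

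The mitochondrial ribosome reads the few mRNAs of the mitochondrial genome, all of which code for subunits of the respiratory chain and ATP synthase. Its proteins are encoded in the nucleus, made in the cytosol and imported, whereas both of its rRNAs come from mitochondrial DNA. The large subunit (Mrpl genes) holds the site where peptide bonds form and the exit tunnel, and the small subunit (Mrps genes) holds the decoding site. The kidney, whose tubules reabsorb solutes by active transport, is among the tissues richest in mitochondria.

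Reads counted on the genes of the table numbered 4488493 to 5797251 in the 8 kidneys for which reads were recovered. Of each kidney's normalized counts, 33.8% to 38.04% came from the mitochondrial genome. Over all 13236 genes tested, 457 were higher and 341 lower in Rragc S74N/+ at an adjusted p under 0.05 (limma, Benjamini-Hochberg). Rragc itself, whose edited codon a 3′ count does not read, had normalized counts of 115, 114, 118, 181 and 204 in the +/+ kidneys and 160.4, 90.1, 135, 123 and 109.8 in the S74N/+ kidneys (log2 fold change -0.22 ± 0.20 (SE), adjusted p = 0.51, limma). Those counts therefore check the labels of neither group.

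To show where transcripts begin, promoter windows of some of the members named below are given first. They were read from RefSeq on build GRCm38.p6, which is not the build of the counts, and were matched by symbol. The first 4 windows end at the base before the annotated start, and the last is a stretch of 30 bases around a motif match downstream of the start. Mrps26 (chr2:130563607-130563756, plus strand), Mrpl51 (chr6:125192050-125192199, plus strand), Mrpl10 (chr11:97041432-97041581, plus strand) and Mrps6 (chr16:92058186-92058335, plus strand) are members with lower mean counts in Rragc S74N/+, and Mrpl35 (chr6:71823743-71823772, minus strand) is the member whose S74N/+ values all lay above the +/+ values. Capitals mark a match to an ETS motif bound by GABP (CCGGAAG, here also as its reverse complement CTTCCGG), to the core of the NRF1 motif (GCATGCGC) or to the YY1 motif (AAGATGGC). NRF1, GABP and YY1 are transcription factors known for driving nuclear genes of mitochondria. The Mrps6 window holds no match. No window is shown for Mrpl2, Mrpl38 and Mrps14, whose groups did not overlap either and for which no match to these motifs was found. The windows are thus no fair sample of the members.
Mrps26: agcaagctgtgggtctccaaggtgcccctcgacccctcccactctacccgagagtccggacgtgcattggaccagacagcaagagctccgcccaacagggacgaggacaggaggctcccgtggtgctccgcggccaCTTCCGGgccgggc
Mrpl51: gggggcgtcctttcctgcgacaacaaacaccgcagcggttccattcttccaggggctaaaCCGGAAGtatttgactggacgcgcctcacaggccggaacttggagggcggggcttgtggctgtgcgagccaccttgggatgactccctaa
Mrpl10: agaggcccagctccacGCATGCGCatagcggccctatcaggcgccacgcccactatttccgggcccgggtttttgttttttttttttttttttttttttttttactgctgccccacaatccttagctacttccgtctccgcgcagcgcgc
Mrps6: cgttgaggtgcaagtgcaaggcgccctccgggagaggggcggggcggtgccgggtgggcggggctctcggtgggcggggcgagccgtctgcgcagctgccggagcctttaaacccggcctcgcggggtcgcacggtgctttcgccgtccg
Mrpl35: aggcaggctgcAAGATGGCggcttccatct

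Promoters of 300 bases, from 250 before to 50 after the start, were found for 68 of the 76 members, and both strands were searched. The ETS motif was in 25 of the 68 promoters (36.8%), against 19.7% of the 9866 tested genes with a promoter and 9.93% of all 27025 promoters in the reference. The NRF1 core was in 8 of 68 (11.8%), against 5.74% of tested genes and 3.05% of all promoters. The YY1 motif was in 12 of 68 (17.6%), against 5.29% and 3.19%. At least 1 of these 3 was present in 37 of 68 members (54.4%), in 23 of 42 of the large and 14 of 26 of the small subunit, against 27.9% of tested genes. The E-box CACGTG, which factors such as TFEB and MYC can bind and which reads the same on both strands, was in 5 of 68 (7.35%), against 11.7% of tested genes. The members with an ETS match had a median log2 fold change of -0.25 (22 of 25 below 0), those with an NRF1 core of -0.39 (7 of 8 below 0), those with a YY1 match of -0.14 (9 of 12 below 0) and those with an E-box of -0.37 (5 of 5 below 0). Over all 76 members the median was -0.23, with 63 below 0. Tested genes with the same matches had medians of -0.05 for ETS (1087 of 1947 below 0) and -0.05 for the NRF1 core (312 of 566). Their medians were -0.08 for YY1 (301 of 522 below 0) and -0.06 for the E-box (657 of 1157). Whether any motif went with the members' difference was not tested. A match is a stretch of letters, and binding was not measured.

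Most transcripts of mitochondrial ribosomal proteins had lower mean levels in Rragc S74N/+ kidneys, by amounts that were small for each gene. Of the 76 members, 63 had a log2 fold change (S74N/+ minus +/+) below 0 and 13 above 0, where over all genes tested 51.3% lay below 0. The median log2 fold change was -0.23 over the members and -0.01 over all genes. A single member, Mrps26, passed the test as lower, which is 1.32% of the members beside 2.58% of all genes called lower. No member passed as higher, beside 3.45% of all genes called higher. At an unadjusted p under 0.05, 22 members were lower (28.9%) beside 12.8% of all genes, and 1 was higher (1.32%) beside 12.6% of all genes. So the share called lower was below that of all genes, and the share with a low unadjusted p was above it. In whole kidney, fewer cells of a type and less RNA per cell cannot be told apart.

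**Figure D1:**
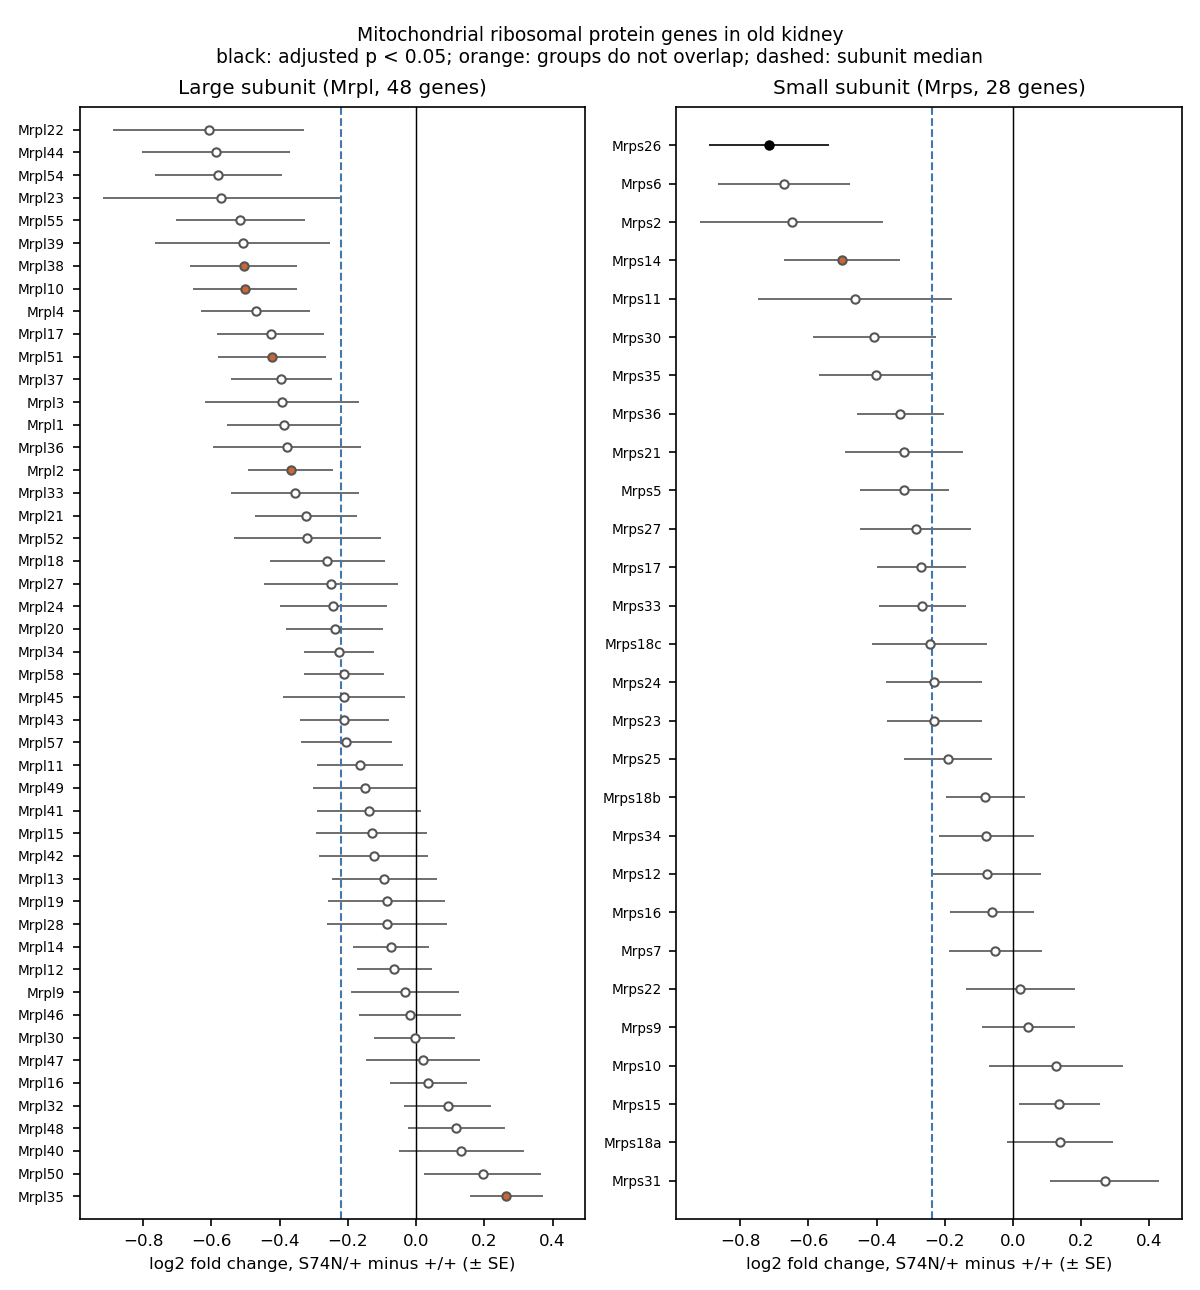
Log2 fold change (S74N/+ minus +/+, log2 of the normalized count plus 1, with SE) of all 48 Mrpl and 28 Mrps members, ordered by value; the dashed lines are the subunit medians of -0.22 and -0.24. Mrps26 in black passed the test, members in orange had groups that did not overlap, and 63 of 76 points lie left of 0.

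The large and the small subunit had nearly the same median. Among large-subunit members, 41 of 48 were below 0 with a median of -0.22, and among small-subunit members 22 of 28 with a median of -0.24, on the log2 scale. Counts from the 3′ end do not depend on transcript length, so normalized counts could be summed over genes. The summed large-subunit count was 11426, 11474, 10318, 11087 and 10948 in the +/+ kidneys and 9309, 9988, 9900, 9941 and 9906 in the S74N/+ kidneys, a difference of the means of -11.2%. The summed small-subunit count was 7381, 7384, 6426, 7144 and 7108 in the +/+ kidneys and 5826, 6168, 6372, 6317 and 6002 in the S74N/+ kidneys, a difference of -13.4%. In both sums every S74N/+ kidney lay below every +/+ kidney, with +/+ replicate 3 closest to the S74N/+ group. Abundant members weigh most in a sum. In the small subunit the means were 1348 in wild-type and 1119 in S74N/+ mice for Mrps21, and 390 and 258 for Mrps6. The ratio of the large to the small sum was 1.56 ± 0.026 in wild-type and 1.599 ± 0.038 in S74N/+ mice (SD, n = 5 each), and the groups overlapped (1.54 to 1.61 and 1.55 to 1.65).

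The size of this difference depended on how the kidneys were scaled. The normalized counts of the S74N/+ kidneys summed to 4473981 to 4847611 over all genes and those of the +/+ kidneys to 4576639 to 5087152. As a share of all normalized counts the members made up 0.367% ± 0.0094 in wild-type and 0.341% ± 0.013 in S74N/+ mice (SD, n = 5 each), and these groups overlapped. As a share of the counts from nuclear genes they made up 0.585% ± 0.016 and 0.530% ± 0.017 (SD, n = 5 each), with no overlap. With totals set equal in every kidney the differences were -6.18% for the large sum, with overlap, and -8.45% for the small sum, without. That scaling raised the all-gene median (log2) from -0.01 to 0.06, and 54 of the 76 members were then below 0, with medians of -0.14 for the large and -0.16 for the small subunit. The median over all members was then -0.15, and 43.0% of all genes tested lay below 0.

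**Figure D2:**
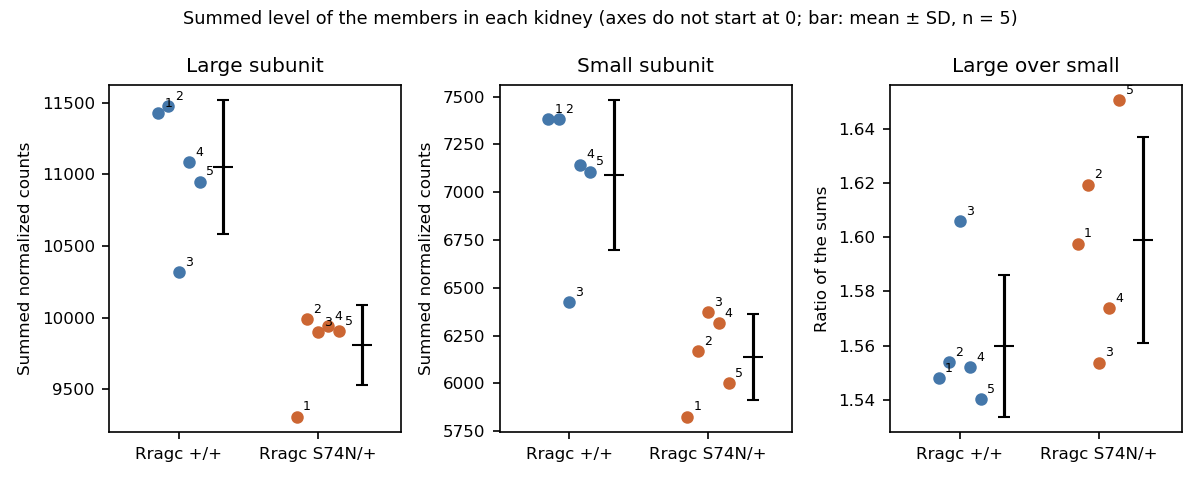
Summed normalized counts of the large-subunit and small-subunit members in each kidney, and the ratio of both sums; points are kidneys with their replicate number and bars are mean ± SD (n = 5), on axes that do not start at 0. Both sums separate the groups, the S74N/+ kidneys lying between 9309 and 9988 for the large and between 5826 and 6372 for the small subunit, while the ratio overlaps.

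Kidneys differed in how strongly they showed it. Rragc S74N/+ replicate 1 held the lowest of the 10 values in 32 of the 76 members (42.1%), beside 24.0% of all genes tested. It held the highest value in 7 members (9.21%), beside 20.4% of all genes. The median deviation of the members from their +/+ mean was -0.35 (log2) in this kidney and between -0.18 and -0.16 in the other 4 S74N/+ kidneys. At the other end, Rragc +/+ replicate 2 held the highest value in 27 members (35.5%), beside 15.6% of all genes. Without S74N/+ replicate 1 the medians were -0.20 for the large and -0.21 for the small subunit, with 63 members below 0. The sample titles carry numbers that fall into a range under 200 (3 kidneys of each genotype) and one over 200 (2 of each), and the labels do not say what the ranges are. Within the lower range the medians were -0.31 (large) and -0.24 (small) with 54 of 76 members below 0, and within the upper range -0.16 and -0.21 with 58 below 0. Over all genes tested, 49.9% lay below 0 in the lower and 50.7% in the upper range. Of the members, 42 were below 0 in both ranges and 6 above 0 in both, a count that was not made over all genes.

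**Figure D3:**
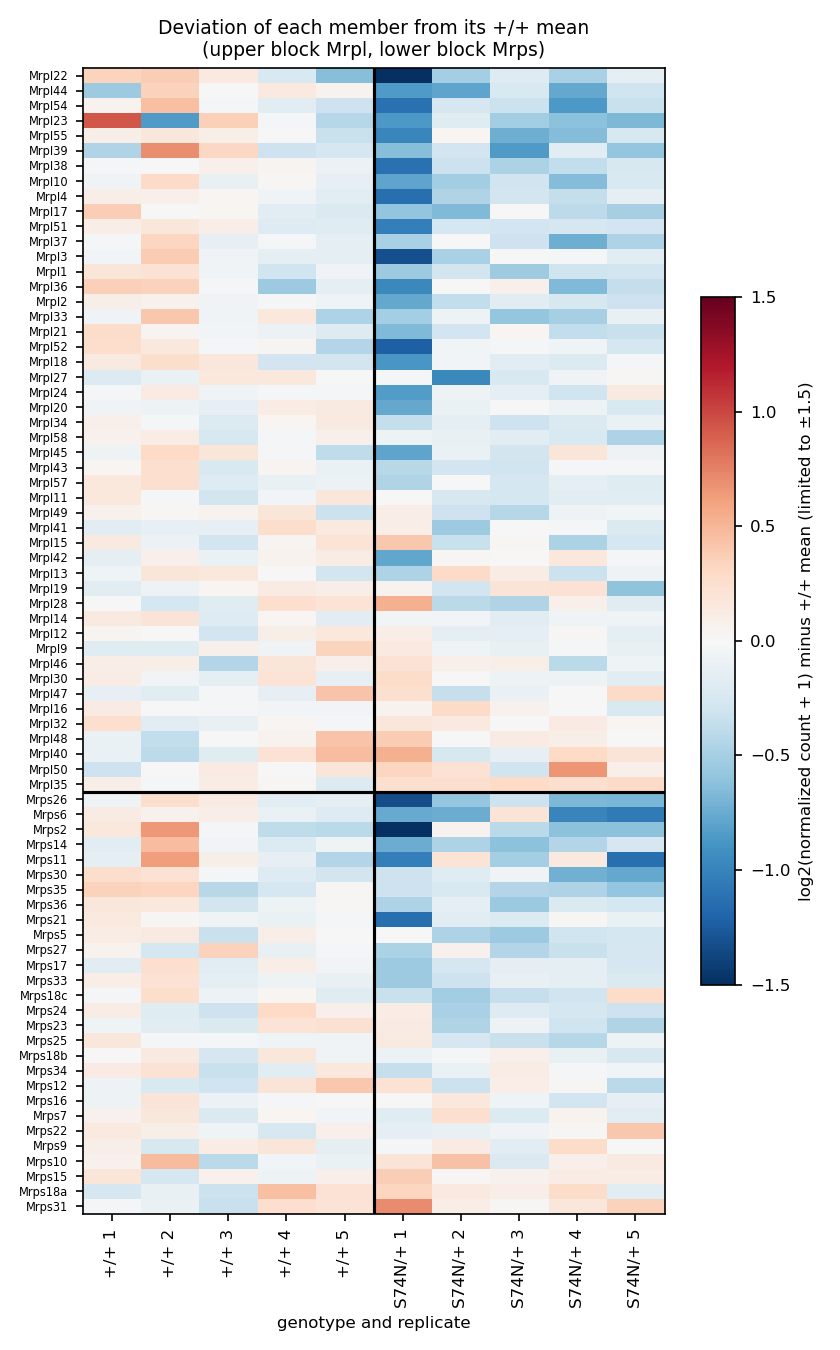
Each member's log2(normalized count + 1) in each of the 10 kidneys minus its Rragc +/+ mean, the Mrpl block above the Mrps block and each ordered by fold change; the colour scale is limited to ±1.5. Blue prevails in the S74N/+ columns and is deepest in replicate 1, which also holds some of the reddest cells in the lower rows of each block.

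Mrps26, a small-subunit protein with no bacterial counterpart, fell in Rragc S74N/+. Its normalized counts were 168, 211, 192, 155 and 158 in the +/+ kidneys and 69.01, 117, 142, 110.0 and 109 in the S74N/+ kidneys, with means of 177 ± 23.96 in wild-type and 109 ± 26.2 in S74N/+ mice (SD, n = 5 each). Every S74N/+ value lay below every +/+ value, and replicate 1 was the lowest. The log2 fold change was -0.72 ± 0.18 (SE) and the adjusted p was 0.027 (limma over all 13236 genes). The call held in 6 of the 10 fits that left out 1 kidney. It was lost without +/+ replicate 1 (adjusted p = 0.059), +/+ replicate 2 (0.084), +/+ replicate 3 (0.056) or S74N/+ replicate 5 (0.058), with log2 fold changes from -0.82 to -0.56 over all 10 fits. It was also lost without the variance trend (0.067) and within each range of title numbers alone (-0.85 and 0.17 in the lower, -0.52 and 0.16 in the upper range, as log2 fold change and adjusted p).

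Mrps6, the counterpart of bacterial S6, came next in size among the small-subunit proteins and lay just outside the threshold. Its normalized counts were 424, 407, 418, 362 and 340.3 in the +/+ kidneys and 229, 231, 448, 195 and 187 in the S74N/+ kidneys (log2 fold change -0.67 ± 0.19 (SE), adjusted p = 0.051, limma). Replicate 3 of Rragc S74N/+ was above all 5 wild-type kidneys, and the other 4 were below all of them. Without that replicate the log2 fold change was -0.89 and the adjusted p was 0.0012 (limma). In the 8 kidneys with recovered reads, which do not include it, edgeR gave an adjusted p of 0.0023 and DESeq2 one of 1.3e-07. Mrps6 shares exons with Slc5a3, the transporter that takes up myo-inositol with sodium, on the same strand in GENCODE vM21. The normalized counts of Slc5a3 were 519, 500.4, 608, 575 and 691 in the +/+ kidneys and 339, 284, 679, 383 and 352 in the S74N/+ kidneys (log2 fold change -0.57 ± 0.19 (SE), adjusted p = 0.079, limma). S74N/+ replicate 3 was the only high S74N/+ kidney for both genes, and how far reads of one were counted for the other was not tested. Among the other members, only Mrps24 (with Urgcp) and Mrps34 (with Nme3) share exons with a same-strand gene of the table.

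Besides Mrps26, 5 members had groups that did not overlap with lower values in Rragc S74N/+, and none of the 5 passed the test. With Mrps26 that is 6 of 76 (7.89%), beside 4.01% of all genes. Mrpl10, whose protein anchors the stalk of the large subunit to the rRNA, had 122, 155, 117, 128 and 116 in the +/+ kidneys and 72.7, 88.2, 103, 80.5 and 108 in the S74N/+ kidneys (log2 fold change -0.50 ± 0.15 (SE), adjusted p = 0.062, limma). The stalk recruits translation factors through Mrpl12, whose values are given further on. Mrpl38, a protein specific to mitochondrial ribosomes in the central protuberance, had 196, 199, 210.2, 206 and 188 in the +/+ kidneys and 91.4, 159.9, 143, 154 and 169 in the S74N/+ kidneys (log2 fold change -0.51 ± 0.16 (SE), adjusted p = 0.067). Mrpl2, which lies next to the site where peptide bonds form, had 368, 362, 333, 338 and 330.3 in the +/+ kidneys and 202, 268, 311, 293 and 278 in the S74N/+ kidneys (log2 fold change -0.37 ± 0.13 (SE), adjusted p = 0.087). In each of these 3 genes replicate 1 was the lowest S74N/+ kidney.

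Mrpl51, a large-subunit protein with no bacterial counterpart, had normalized counts of 304, 321, 306, 248 and 252 in the +/+ kidneys and 139, 237, 234, 238 and 233.2 in the S74N/+ kidneys (log2 fold change -0.42 ± 0.16 (SE), adjusted p = 0.11, limma). Here 4 S74N/+ kidneys lay within a few counts of each other just under the lowest wild-type kidney, and replicate 1 far under them. Mrps14, the counterpart of bacterial S14, had 82.8, 128, 90.2, 80.3 and 88.5 in the +/+ kidneys and 55.02, 66.9, 59.99, 68.2 and 77.7 in the S74N/+ kidneys (log2 fold change -0.50 ± 0.17 (SE), adjusted p = 0.084). Its +/+ replicate 2 stood above the other wild-type kidneys, and without it the log2 fold change was -0.39.

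**Figure D4:**
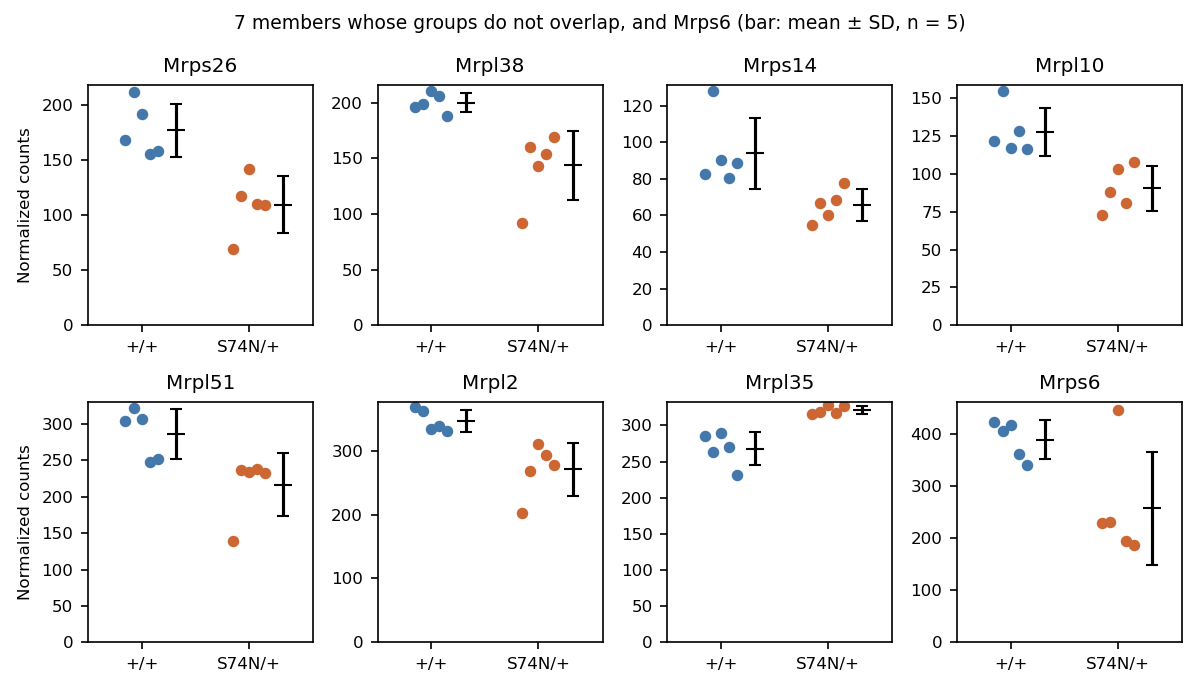
Normalized counts in each kidney of the 7 members whose groups do not overlap and of Mrps6; points are kidneys, bars are mean ± SD (n = 5) and every axis starts at 0. The S74N/+ points lie under the +/+ points in 6 panels and above them for Mrpl35, and for Mrps6 1 S74N/+ kidney at 448 lies above the wild-type kidneys.

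Further members with large negative log2 fold changes varied more between kidneys. Mrps2, the counterpart of bacterial S2, had normalized counts of 201, 283, 177, 138 and 136 in the +/+ kidneys and 55.95, 187, 136, 117 and 118 in the S74N/+ kidneys (log2 fold change -0.65 ± 0.27 (SE), adjusted p = 0.14, limma). Mrpl22, which lines the exit tunnel, had 98.4, 101, 86.4, 66.4 and 49.7 in the +/+ kidneys and 23.3, 54.3, 67.98, 55.00 and 69.95 in the S74N/+ kidneys (log2 fold change -0.61 ± 0.28 (SE), adjusted p = 0.19). For both genes the groups overlapped, and S74N/+ replicate 1 was the lowest kidney. Mrpl22 had a log2 fold change of 0.11 within the upper range of title numbers, so its direction rests on the lower range. Mrpl44, a large-subunit protein with a fold related to ribonuclease III, had 35.8, 67.6, 52.8, 58.5 and 54.7 in the +/+ kidneys and 28.9, 30.05, 44.99, 30.6 and 42.7 in the S74N/+ kidneys (log2 fold change -0.59 ± 0.22 (SE), adjusted p = 0.11), with +/+ replicate 1 inside the S74N/+ range.

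On the other side of 0, Mrpl35 had the clearest separation. This counterpart of bacterial L35 had normalized counts of 285, 263, 289, 269.8 and 232 in the +/+ kidneys and 315, 318, 328, 318 and 326 in the S74N/+ kidneys, with means of 268 ± 22.8 in wild-type and 321 ± 5.73 in S74N/+ mice (SD, n = 5 each). The S74N/+ kidneys were tightly grouped above all wild-type kidneys, the only such case among the members (1 of 76, 1.32%, beside 4.15% of all genes), but its log2 fold change, 0.26 ± 0.11 (SE), missed the threshold (adjusted p = 0.14, limma). Mrps31, a small-subunit protein with no bacterial counterpart, had 143, 135, 115, 173 and 167 in the +/+ kidneys and 239, 155, 147, 164 and 185 in the S74N/+ kidneys (log2 fold change 0.27 ± 0.16 (SE), adjusted p = 0.30), and replicate 1, low in so many members, was its highest kidney. Mrpl50, also without a bacterial counterpart, ranged from 97.3 to 137 in the +/+ kidneys and 97.98 to 192 in the S74N/+ kidneys (log2 fold change 0.20 ± 0.17 (SE)). Mrps15, the counterpart of bacterial S15, ranged from 244 to 330.0 in the +/+ kidneys and 295 to 376 in the S74N/+ kidneys (log2 fold change 0.14 ± 0.12 (SE)). Neither passed the test.

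None of the most abundant members passed the test. Mrps21, the counterpart of bacterial S21, had the highest level, with normalized counts of 1495, 1361, 1299, 1257 and 1331 in the +/+ kidneys and 612, 1199, 1165, 1359.7 and 1260.1 in the S74N/+ kidneys (log2 fold change -0.32 ± 0.17 (SE), adjusted p = 0.26, limma). S74N/+ replicate 1 stood far under every other kidney, and the remaining S74N/+ kidneys overlapped the wild-type range. Mrpl34, the counterpart of bacterial L34, was second with 1231, 1144, 1011, 1190.3 and 1277 in the +/+ kidneys and 911, 1051, 939.8, 1007 and 1089 in the S74N/+ kidneys (log2 fold change -0.23 ± 0.10 (SE), adjusted p = 0.18). Mrpl12, the stalk protein, also reported to bind the mitochondrial RNA polymerase, was the third with 961, 935, 768, 999 and 1049 in the +/+ kidneys and 1001, 844, 854, 946 and 850.1 in the S74N/+ kidneys (log2 fold change -0.06 ± 0.11 (SE), adjusted p = 0.76). Its groups overlapped almost fully, and its sign changed when totals were set equal (0.02), in edgeR (0.0010) and within the lower range of title numbers (0.02). Mrpl30, the fourth, ranged from 379 to 486 in the +/+ kidneys and 378 to 512 in the S74N/+ kidneys (log2 fold change -0.00 ± 0.12 (SE)), and its sign changed under every rescaling. Mrps5 and Mrps18b followed among small-subunit members, at 428 ± 54.3 in wild-type and 344 ± 50.97 in S74N/+ mice (SD, n = 5 each) for Mrps5 (log2 fold change -0.32 ± 0.13 (SE), adjusted p = 0.14) and 369 ± 42.4 in wild-type and 348 ± 28.3 in S74N/+ mice (SD, n = 5 each) for Mrps18b.

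Among the least abundant members, counting error weighs more. Mrpl23, which sits at the mouth of the exit tunnel, had the lowest level, 19.5 ± 9.91 in wild-type and 11.7 ± 2.32 in S74N/+ mice (SD, n = 5 each) (log2 fold change -0.57 ± 0.35 (SE), adjusted p = 0.32, limma), and its wild-type kidneys alone spanned 9.36 to 34.7. Mrpl39, a large-subunit protein related to threonyl-tRNA synthetases, had 38.8 ± 14.2 in wild-type and 26.05 ± 5.15 in S74N/+ mice (SD, n = 5 each) (log2 fold change -0.51 ± 0.26 (SE)). In the small subunit the lowest levels were those of Mrps10 and Mrps11, counterparts of bacterial S10 and S11, and of Mrps22, which is specific to mitochondria. Mrps11 ranged from 39.8 to 84.3 in the +/+ kidneys and 24.3 to 63.00 in the S74N/+ kidneys (log2 fold change -0.46 ± 0.28 (SE)). Mrps10 ranged from 38.4 to 71.8 in the +/+ kidneys and 43.99 to 69.8 in the S74N/+ kidneys (log2 fold change 0.13 ± 0.20 (SE)), and Mrps22 from 63.8 to 83.9 in the +/+ kidneys and 68.1 to 100.1 in the S74N/+ kidneys (log2 fold change 0.02 ± 0.16 (SE)). None of these 3 passed the test, and the groups of each overlapped.

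Mammals carry 3 counterparts of bacterial S18 that take different places, Mrps18b and Mrps18c in the small and Mrps18a in the large subunit. Their log2 fold changes were 0.14 ± 0.15 (SE) for Mrps18a, -0.08 ± 0.12 (SE) for Mrps18b and -0.24 ± 0.17 (SE) for Mrps18c, and none passed the test (adjusted p = 0.62, 0.70 and 0.38, limma). Mrps18a ranged from 229 to 394 in the +/+ kidneys and 256 to 360.0 in the S74N/+ kidneys. Within the upper range of title numbers the signs of Mrps18a (-0.28) and Mrps18c (0.07) turned, and within the lower range that of Mrps18b (0.03), so no order among the 3 can be given. Mrps30, named for the small subunit but found in the large, had normalized counts of 129, 124, 106, 93.4 and 87.6 in the +/+ kidneys and 85.8, 94.02, 103, 64.2 and 62.2 in the S74N/+ kidneys (log2 fold change -0.41 ± 0.18 (SE), adjusted p = 0.17). Mrps36, now known as a part of the 2-oxoglutarate dehydrogenase complex, had 327, 326, 241, 276 and 295 in the +/+ kidneys and 211, 263, 197, 251 and 243 in the S74N/+ kidneys (log2 fold change -0.33 ± 0.13 (SE), adjusted p = 0.13).

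When subunits were assigned by the place of the protein rather than by its symbol, the medians were -0.23 for the large (43 of 51 genes below 0) and -0.23 for the small subunit (23 of 29). That assignment moved Mrps18a and Mrps30, left out Mrps36 and added Dap3, Ptcd3, Chchd1 and Aurkaip1 (small) and Gadd45gip1 (large). Members with a bacterial counterpart had a median log2 fold change of -0.24 (38 of 45 below 0) and those without one of -0.21 (24 of 30), a split made after the values were known. In the large subunit this split went by gene number rather than by sequence, so single genes may be misplaced. The same count over other families, as a description, gave 58 of 84 genes below 0 with a median of -0.16 for proteins of the cytosolic ribosome (1 called lower). It gave 34 of 37 below 0 with a median of -0.37 for nuclear subunits of complex I (8 called lower). Over all genes tested, 2.58% were called lower. The mitochondrial ribosome thus lay between both families in its median.

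Other genes of mitochondrial gene expression were taken from set lists. None of the 5 ribosome subunits with other names passed the test. The largest value among them was that of Chchd1, a small-subunit protein (log2 fold change -0.63 ± 0.23 (SE), adjusted p = 0.11, limma). The 12S and 16S rRNA genes, mt-Rnr1 and mt-Rnr2, had log2 fold changes of -0.05 ± 0.23 (SE) and -0.00 ± 0.28 (SE). An oligo-dT primed library reads rRNA only as far as it is primed, so these are no measure of ribosome number. Of 27 assembly factors tested, 18 were below 0, the median was -0.15 and none passed the test. Ndufab1, the mitochondrial acyl carrier protein that also sits in assembly intermediates, had 642, 780.2, 640.3, 542 and 534 in the +/+ kidneys and 194, 433, 505, 438 and 461 in the S74N/+ kidneys (log2 fold change -0.69 ± 0.21 (SE), adjusted p = 0.064). Mettl17, which takes part in small-subunit assembly, had 27.97, 30.2, 32.6, 28.8 and 32.8 in the +/+ kidneys and 15.9, 12.6, 21.00, 26.5 and 16.5 in the S74N/+ kidneys (log2 fold change -0.73 ± 0.24 (SE), adjusted p = 0.082). For both, every S74N/+ kidney lay below every wild-type kidney, as in 4.01% of all genes tested.

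Of 14 translation factors tested, 1 was called higher, beside 3.45% of all genes. Taco1, an activator of the translation of mt-Co1, had normalized counts of 23.5, 28.1, 24.00, 27.9 and 24.9 in the +/+ kidneys and 63.4, 51.4, 38.99, 49.9 and 45.7 in the S74N/+ kidneys (log2 fold change 0.92 ± 0.20 (SE), adjusted p = 0.014, limma), and the groups did not overlap. It passed in all 10 fits that left out 1 kidney. The median of the 14 was 0.12, with 6 below 0. None of 21 mitochondrial tRNA synthetases and related enzymes passed the test (13 below 0, median -0.03), and none of 16 tested genes of mitochondrial DNA expression and RNA processing did (8 below 0, median 0.00). Among 9 upstream regulators 1 was called lower, beside 2.58% of all genes. This was Ppargc1a, the coactivator PGC-1α that raises the expression of nuclear genes of mitochondria. Its normalized counts were 320.0, 293, 336, 305 and 264 in the +/+ kidneys and 151, 190.0, 238, 238 and 255 in the S74N/+ kidneys (log2 fold change -0.52 ± 0.15 (SE), adjusted p = 0.047). The call held only without +/+ replicate 5 (adjusted p = 0.046) or S74N/+ replicate 3 (0.045) and was lost in the other 8 fits that left out 1 kidney (0.054 to 0.10). NRF1, YY1 and the DNA-binding subunit of GABP did not pass the test, with log2 fold changes of -0.46 ± 0.23 (SE) for Nrf1, -0.07 ± 0.21 (SE) for Gabpa and -0.02 ± 0.11 (SE) for Yy1. Whether their proteins differed was not measured.

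The 13 mRNAs that the mitochondrial ribosome reads were mostly lower. Of these, 11 were below 0 with a median log2 fold change of -0.38, and in 7 the groups did not overlap with lower values in Rragc S74N/+, beside 4.01% of all genes. Only mt-Atp8, a subunit of ATP synthase, passed the test as lower (log2 fold change -0.73 ± 0.18 (SE), adjusted p = 0.031, limma), beside 2.58% of all genes. That call held in 4 of the 10 fits that left out 1 kidney and was lost without +/+ replicate 1, 2, 3 or 4 or S74N/+ replicate 4 or 5 (adjusted p = 0.051 to 0.096). The gene for cytochrome b, mt-Cytb, had a log2 fold change of -0.75 ± 0.24 (SE) (adjusted p = 0.070). These mRNAs carry short poly(A) tails and some neighbouring ones overlap, so their 3′ counts are less certain than those of nuclear genes.

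**Figure D5:**
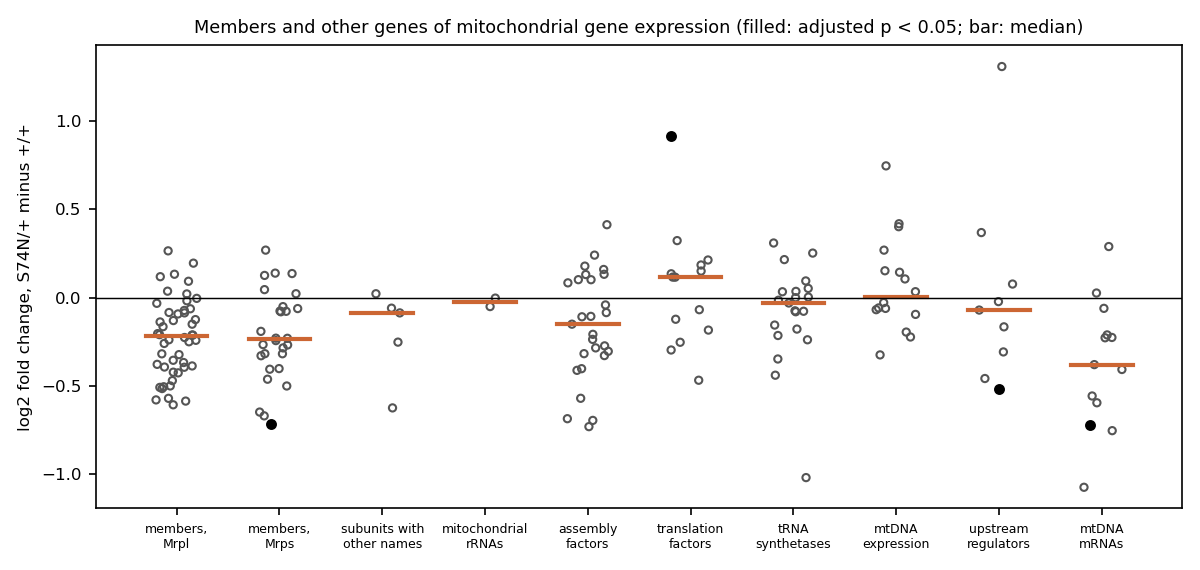
Log2 fold change (S74N/+ minus +/+) of the members by subunit and of each list of other genes of mitochondrial gene expression; each circle is a gene, bars are medians and filled circles passed the test. The filled circles are Mrps26, Taco1, Ppargc1a and mt-Atp8, and the medians of both subunits lie at -0.22 and -0.24.

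Markers of kidney cell types moved in the same kidneys, and their part in the members' difference was not tested. Beside the counts below, 2.58% of all genes tested were called lower and 3.45% higher. Of 7 proximal tubule markers 1 passed the test as lower (Slc5a2, log2 fold change -1.05 ± 0.14 (SE)), and the summed level of the 7 was 26048 to 33407 in the +/+ kidneys and 25780 to 32538 in the S74N/+ kidneys. All 3 markers of the distal convoluted tubule passed as lower, with sums of 3730 to 4540 and 858 to 1463, and Pvalb was at 0 in S74N/+ replicate 5. Umod passed as lower among 3 markers of the thick ascending limb, whose sums were 7772 to 10814 and 3388 to 8495. The log2 fold change of Umod was -1.55 ± 0.23 (SE), while Slc12a1 had 0.04 ± 0.18 (SE) and Cldn16 0.44 ± 0.27 (SE). Of 4 collecting duct markers, 1 was called lower (sums 870 to 2685 and 833 to 2146). That was Slc4a1, with a log2 fold change of -1.19 ± 0.24 (SE). Aqp3 had -0.43 ± 0.21 (SE), while Aqp2 had 0.31 ± 0.48 (SE) and Atp6v1g3 0.42 ± 0.14 (SE). No podocyte marker of 3 passed (258 to 327 and 286 to 390) and no endothelial marker of 3 (817 to 961 and 762 to 978). The endothelial markers moved in different directions. Kdr had a log2 fold change of -0.49 ± 0.14 (SE, adjusted p = 0.051, limma), with every S74N/+ kidney below every +/+ kidney. Pecam1 had 0.31 ± 0.18 (SE) and Emcn 0.30 ± 0.16 (SE). Of 4 leukocyte markers measured, 3 passed as higher (906 to 1228 and 1827 to 2556), and of 3 fibroblast markers 2 (305 to 478 and 638 to 946). Slc34a1 and Lrp2, which define the proximal tubule, were among the abundant transcripts of both groups.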

How the data were processed

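The genes for mitochondrial ribosomal proteins, the lists of other genes and the tests were chosen with earlier results of these data known. Libraries came from 300 ng of total RNA per kidney (RNA quality 6.2 to 7, mean 6.7, per the labels) and were made with an oligo-dT primed, stranded 3′ kit. Per the submitters' processing notes and the methods of the study, reads were checked with FastQC 0.11.7, aligned to GRCm39 with TopHat2 2.0.10, Bowtie 1.0.0 and SAMtools 0.1.19, and counted on the sense strand with HTSeq 0.6.1 on GENCODE vM26. The deposited table holds signal values, namely read counts that the authors divided by a size factor of each sample, for 13299 gene symbols. How low genes were removed from it is not given in the sources used here.

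Genes entered where 5 or more samples had a normalized count of 5 or more, leaving 13236 and removing 63. Log2(normalized count + 1) was fitted with limma 3.58.1 (R 4.3.3), genotype as the only term, and eBayes used a variance trend. Two-sided p-values were corrected over all 13236 genes (Benjamini-Hochberg, threshold 0.05). Log2 fold changes refer to this scale, which understates the change of low genes. The p-values set the genotype difference against the spread between mice, which eBayes moderates with values from all genes. The deposited values were turned back into whole reads in 8 of 10 samples (100% of values within 0.1 reads of a whole number). The exceptions, +/+ replicate 5 and S74N/+ replicate 3, have size factors near 1 and were not accepted as recovered. Count models (edgeR 4.0.16, DESeq2 1.42.0) therefore ran on the 8 samples as alternatives, and limma on the same 8 was added after seeing the data. These fits were tested on simulated data. Other alternatives were pseudocounts of 0.5 and 5, no filter, a mean of at least 50, 3 rescalings, no variance trend, a block for the range of title numbers, each kidney left out in turn, and, added after seeing the data, each range of title numbers alone.

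Named with values were the members past the threshold, the 5 largest positive and negative log2 fold changes, the 3 highest and lowest levels per subunit, the Mrps18 paralogs, Mrps30, Mrps36, Mrpl12 and members whose groups did not overlap. Motifs were searched in RefSeq promoters of GRCm38.p6. Same-strand overlaps rest on the gene and exon positions of GENCODE vM21, which is not the annotation of the counts. Slc5a3 was named after its values were seen. Sums and medians over members were given no test.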

Additional observations from a re-analysis of the deposited data

Results flagged for a closer look

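Of 66 groups of 5 kidneys searched (each named member, both sums, their ratio and the median deviation, in each genotype), 11 held 1 kidney that stood apart from the other 4 by Dixon's test at the 95% level, where chance gives about 3.3. Genes share kidneys, so these are not independent.

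Rragc S74N/+ replicate 1 stood low for Mrpl51 (139 normalized counts, the other 4 at 233.2 to 238), for Mrps21 (612, the others at 1165 to 1359.7), for the large-subunit sum (9309, the others at 9900 to 9988) and for the median deviation of the members (-0.35 on the log2 scale, the others at -0.18 to -0.16). The same kidney stood high for Mrps15 (376, the others at 295 to 315).

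Rragc S74N/+ replicate 3 stood high for Mrps6 (448, the others at 187 to 231). Rragc S74N/+ replicate 5 stood high for Mrps22 (100.1, the others at 68.1 to 76.4) and for Mrps18c (116, the others at 65.9 to 77.4).

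Among wild-type kidneys, Rragc +/+ replicate 2 stood high for Mrps14 (128, the others at 80.3 to 90.2). Rragc +/+ replicate 3 stood low for the small-subunit sum (6426, the others at 7108 to 7384) and high for the ratio of the large to the small sum (1.61, the others at 1.54 to 1.55).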

How the results depend on the processing

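The medians of both subunits were below 0 under every alternative run, and no member passed as higher in any of them. The count of all genes called was 798; it was 391 without the variance trend, 1402 with DESeq2, 46 within the lower range of title numbers, and 311 to 902 when each kidney was left out in turn. With totals set equal, 718 genes were called higher and 225 lower, against 457 and 341.

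Members called lower numbered 1 and became 2 with a pseudocount of 5 (with Mrps6), a mean of at least 50 (with Mrpl10), a block for title numbers (with Mrps6) or the upper range of title numbers alone (Mrps23 and Mrps6). They became 0 without the variance trend, where Mrps26 had an adjusted p of 0.067 (limma), and 0 within the lower range. They became 3 with edgeR and with limma on the same 8 kidneys (Mrps26, Mrps6 and Mrpl17) and 5 with DESeq2 (also Mrpl10 and Mrpl54), and ranged from 0 to 3 when each kidney was left out. Without S74N/+ replicate 3 the 3 were Mrps26, Mrps6 and Mrpl17. Of all 13236 genes tested, 341 were called lower in the main fit, 337 with edgeR, 350 with limma on the 8 kidneys and 640 with DESeq2. The all-gene count was 365 with a pseudocount of 5, 360 with the block and 302 of 7743 with a mean of at least 50. It was 150 without the variance trend, 34 in the lower range, 281 in the upper range and 125 to 424 when each kidney was left out. The large-subunit sum differed by -6.18% and the small-subunit sum by -8.45% with totals set equal.

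Signs turned in members near 0: Mrpl30 (0.074 with totals equal, 0.037 with nuclear totals equal, 0.013 with 75th percentiles equal, 0.10 in the lower range, -0.076 to 0.047 leaving out each kidney), Mrpl12 (0.015 with totals equal, 0.0010 in edgeR, 0.021 in the lower range), Mrps22 (-0.16 in the lower range, -0.073 to 0.064 leaving out each kidney) and Mrps18b (0.026 in the lower range). In the upper range they turned for Mrpl22 (0.11), Mrps18a (-0.28), Mrps21 (0.017) and Mrps18c (0.071). Over the named members, 655 of the values kept their direction and side of the threshold, 10 newly passed it, 7 no longer did and 20 turned. The cause of these changes was not tested. No paired analysis was possible because the labels give no replicate numbers. Counting error limits members with few counts, such as Mrpl23.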
